A study of Mus musculus with 90 samples.

Results

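Autophagy genes encode the machinery by which a cell encloses part of its cytoplasm in a double membrane, the autophagosome, and delivers it to the lysosome for breakdown. In liver the process supplies amino acids, fatty acids and glucose when food is absent. It is held down after a meal by insulin and amino acids through the kinase complex mTORC1, which phosphorylates and inhibits ULK1, and FOXO transcription factors, which insulin signaling keeps out of the nucleus, are known to activate several autophagy genes. In total 38 autophagy genes were followed here among the 24308 gene symbols of the expression table. They were chosen by name, with earlier results of these data known, as the core genes of autophagosome formation, the main cargo receptors and 2 transcription factors of the pathway. Where a symbol had several RefSeq identifiers, the one with the highest mean level over all libraries stood for it. All 38 genes passed the filter on low levels in each experiment.

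The question was how these transcripts in mouse liver followed a meal, glucocorticoid signaling and insulin signaling. RNA was sequenced from 54 livers, each from a single mouse, in 5 experiments on mice trained to night-restricted feeding (NRF), in which chow is present only in the dark. Times are zeitgeber times (ZT), counted from lights on. The first experiment held C57BL/6 wild-type mice, 2 taken at ZT10 without food, 2 at ZT14 still without food (unfed) and 2 at ZT14 after food had been returned (fed). The step from ZT10 to ZT14-unfed is called time of day below. It also holds a longer time without food, and these cannot be told apart. In the second, C57BL/6 wild-type mice, 4 per group, were injected before the meal and taken at ZT14. They were unfed with vehicle (PBS), fed with vehicle, fed with 1 mg/kg of dexamethasone (dex, a synthetic agonist of the glucocorticoid receptor GR), fed with S961 (an antagonist of the insulin receptor, labeled as 44 nM per mouse) or fed with both agents. In the third, 8 mice with floxed Nr3c1, the gene of GR, on a C57BL/6 background had received an adeno-associated virus carrying GFP (AAV-GFP, 4 controls) or Cre (AAV-CRE, 4 mice, L-GRKO) 2 weeks before NRF, both under the hepatocyte promoter Tbg, and were taken unfed at ZT14. In the fourth, mice with floxed Irs1 and Irs2, the adaptors of the insulin receptor, on a C57BL/6 background, without (4 controls) or with the Alb-Cre transgene (4 mice, L-IRSdKO), were all injected with 1 mg/kg of dex and taken fed at ZT14. Alb-Cre is driven by the albumin promoter, which is active in hepatocytes. In the fifth, C57BL/6 mice on chow (lean) or a high-fat diet (HFD, obese) for 10 weeks were then kept on NRF for 4 days and taken unfed or fed at ZT14, 3 per group. The mice of the NRF and injection experiments were 10-week-old males. Per the study's methods, the GR floxed mice were adult and the L-IRSdKO mice entered NRF at 10 weeks of age. In the diet experiment the HFD began in males 5 weeks old, so these mice were older at NRF. The labels give C57BL/6 throughout, and the study's methods give C57BL/6N for the wild-type mice of the NRF and injection experiments and the GR floxed mice and C57BL/6J for the L-IRSdKO mice.

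Levels are in RPKM, read numbers scaled for transcript length and library size, and differences in level between experiments were not tested. Estimated depth was 26040000 to 38090000 reads per library in the NRF experiment, 6460000 to 13480000 in the injection experiment, 15230000 to 27400000 in L-GRKO and controls, 3630000 to 4480000 in L-IRSdKO and controls and 16890000 to 61930000 in the diet experiment. For each L-IRSdKO and control library the study's sequencing summary lists far more reads than this estimate. The reason for the gap was not tested. In the L-IRSdKO experiment no gene exceeded 914 RPKM in any library, against highest values of 18853 to 60597 RPKM in the libraries of the other experiments. Replicate 4 of each injection group carried library numbers of a later series than replicates 1 to 3. The genotypes held for GR and Irs1. Nr3c1 was at 12.8, 14.5, 13.2 and 16.2 RPKM in the AAV-GFP controls and at 3.93, 4.23, 4.14 and 5.35 RPKM in L-GRKO, and Irs1 was at 2.21 to 4.73 RPKM in the floxed controls and at 0.149 to 0.321 RPKM in L-IRSdKO. Irs2 was at 0.614, 1.63, 5.61 and 0.929 RPKM in the floxed controls and at 0.272, 1.00, 0.932 and 0.886 RPKM in L-IRSdKO, so the groups overlapped. Markers of hepatocytes were high in every library of all groups, and Ms4a1, a B cell marker, was at 0 on average in at least 1 group. These are whole livers, in which fewer cells of a type and less RNA per cell cannot be told apart.

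A change is given as a log2 fold change on the log2(RPKM + 0.5) scale ± standard error (SE), with a p adjusted over all genes tested in limma (Benjamini-Hochberg). A gene was called changed at an adjusted p under 0.01 in the NRF and diet experiments and under 0.05 in the other 3 experiments. By these thresholds 14 of the 38 autophagy genes were called in at least 1 of 14 comparisons (against 37.9% of the 10518 genes tested in all 5 experiments), making 17 gene and comparison pairs, of which 10 were increases and 7 were decreases. Ulk1 was called in 3 comparisons, Map1lc3b in 2, and the other 12 genes in 1 each. The remaining 24 genes were called in none.

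**Figure D1:**
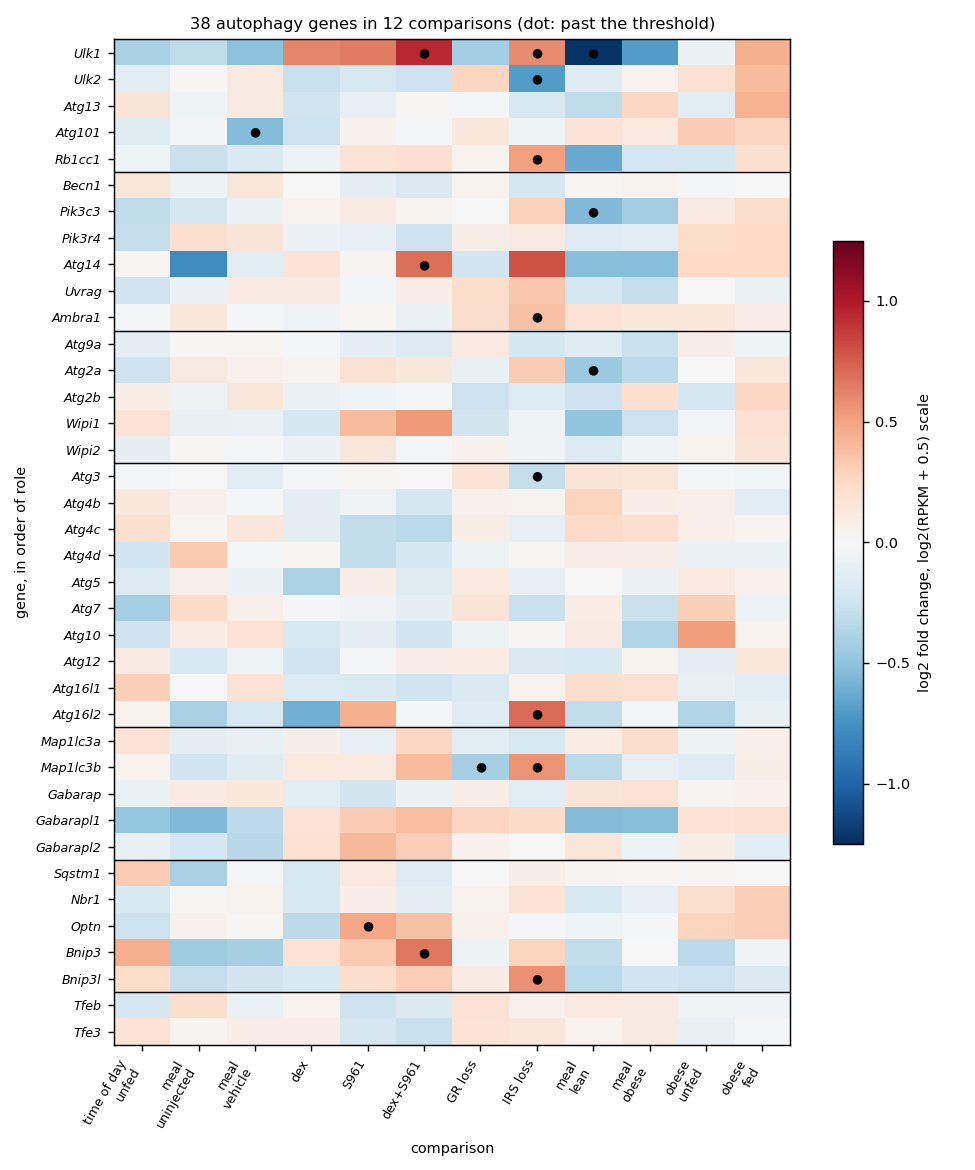
Log2 fold changes of the 38 autophagy genes (rows, in order of role) in 12 comparisons (columns), with color for the size and direction of the change on the log2(RPKM + 0.5) scale and a dot where limma's adjusted p was under the experiment's threshold. The row of Ulk1 holds the most dots, 3, and the column of L-IRSdKO against controls holds 8.

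Ulk1, the kinase that starts autophagosome formation (mm9 chr5:111213507-111239116, minus strand), was the member with the widest range of responses. In lean mice of the diet experiment Ulk1 was at 14.1, 18.8 and 17.1 RPKM in unfed and 6.34, 7.86 and 6.26 RPKM in fed livers. All fed livers lay below all unfed livers, and Ulk1 fell by 1.23 ± 0.16 (SE) on the log2 scale (adjusted p = 0.000652, limma), to 0.43 of its unfed level. In obese mice it was at 18.03, 16.2 and 13.1 RPKM unfed and 11.4, 8.99 and 8.18 RPKM fed. These groups did not overlap either, but the log2 fold change of -0.70 ± 0.16 had an adjusted p of 0.025, above the threshold of 0.01. The meal responses of lean and obese mice were compared by the interaction term, which was 0.53 ± 0.22 (adjusted p = 0.301), so that a difference between the diets was not shown.

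After vehicle injection Ulk1 was at 18.6, 19.1, 19.2 and 21.3 RPKM in unfed and 10.3, 13.3, 13.9 and 17.4 RPKM in fed livers, a log2 fold change of -0.52 ± 0.17 (adjusted p = 0.103). Every fed mouse was below every unfed mouse, and the fed mouse nearest to the unfed group was replicate 4. In uninjected mice Ulk1 was at 4.75 and 5.88 RPKM at ZT10, 3.44 and 4.34 RPKM in ZT14-unfed and 2.65 and 3.38 RPKM in ZT14-fed livers. Neither the step from ZT10 to ZT14-unfed (-0.41 ± 0.16, adjusted p = 0.166) nor the meal (-0.32 ± 0.16, adjusted p = 0.247) was called, with 2 mice per group.

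In fed mice Ulk1 rose when both agents were given. With dex it was at 20.04, 20.6, 16.8 and 27.6 RPKM, with S961 at 20.6, 23.3, 16.1 and 27.4 RPKM, and with dex and S961 together at 23.9, 26.6, 23.7 and 31.8 RPKM. All mice given both agents lay above all fed vehicle mice and above all unfed vehicle mice, while each single agent overlapped the fed vehicle group through its replicate 3. The rise with both agents was 0.94 ± 0.17 (adjusted p = 0.00188), a 1.92-fold change. With dex alone the log2 fold change was 0.61 ± 0.17 (adjusted p = 0.0553) and with S961 alone 0.65 ± 0.17 (adjusted p = 0.0592), both just outside the threshold. The interaction of dex and S961 was -0.32 ± 0.24 (adjusted p = 1), so the effect of both was not shown to differ from the sum of the single effects. These 3 comparisons share the fed vehicle mice. Within the first library series alone, replicates 1 to 3, the log2 fold changes were -0.595 for the meal (adjusted p = 0.0227), 0.60 for dex (adjusted p = 0.0178), 0.65 for S961 (adjusted p = 0.0272) and 0.97 for both agents (adjusted p = 0.00105), which puts all 4 past the threshold of 0.05. The later series has 1 mouse per group and allows no test of its own. With all 4 replicates and a term for the library series, limma's adjusted p was 0.0106 for the meal and 0.003 for dex. For S961 it was 0.00297 and for both agents 3.17e-05. After median-ratio scaling the values were 0.0779 for the meal, 0.0391 for dex, 0.042 for S961 and 0.000764 for both agents. Leaving out fed vehicle replicate 4 gave adjusted p = 0.0268 for dex and 0.0262 for S961. The dex call was also reached without dex replicate 3 (adjusted p = 0.0358), S961 replicate 3 (0.0343) or S961 replicate 4 (0.042), and the S961 call without dex replicate 4 (0.0384) or S961 replicate 3 (0.0277). With each of the 20 libraries left out in turn, dex passed in these 4 cases only (limma's adjusted p from 0.0268 to 0.165). S961 passed in these 3 cases only (0.0262 to 0.188).

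Ulk1 moved in the same direction when insulin signaling was cut genetically. In fed, dex-injected livers it was at 29.1, 28.2, 26.8 and 26.2 RPKM in floxed controls and at 35.1, 47.1, 41.6 and 44.6 RPKM in L-IRSdKO. The groups did not overlap, and Ulk1 rose by 0.60 ± 0.10 (adjusted p = 0.00642), a 1.51-fold change. In unfed livers with AAV-GFP it was at 16.9, 19.0, 12.9 and 18.6 RPKM and with AAV-CRE at 13.1, 11.8, 12.6 and 11.9 RPKM. The controls spread more widely, and 1 of them, replicate 3, overlapped the L-GRKO range. The log2 fold change of -0.42 ± 0.12 had an adjusted p of 0.0683. With each of the 8 libraries left out in turn, the adjusted p ran from 0.0131 to 0.182. It passed the threshold only without that control. Unfed obese and lean livers overlapped for Ulk1 (-0.08 ± 0.16, adjusted p = 0.807). Fed obese livers all lay above fed lean livers (0.45 ± 0.16, adjusted p = 0.162), a difference that was not called.

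**Figure D2:**
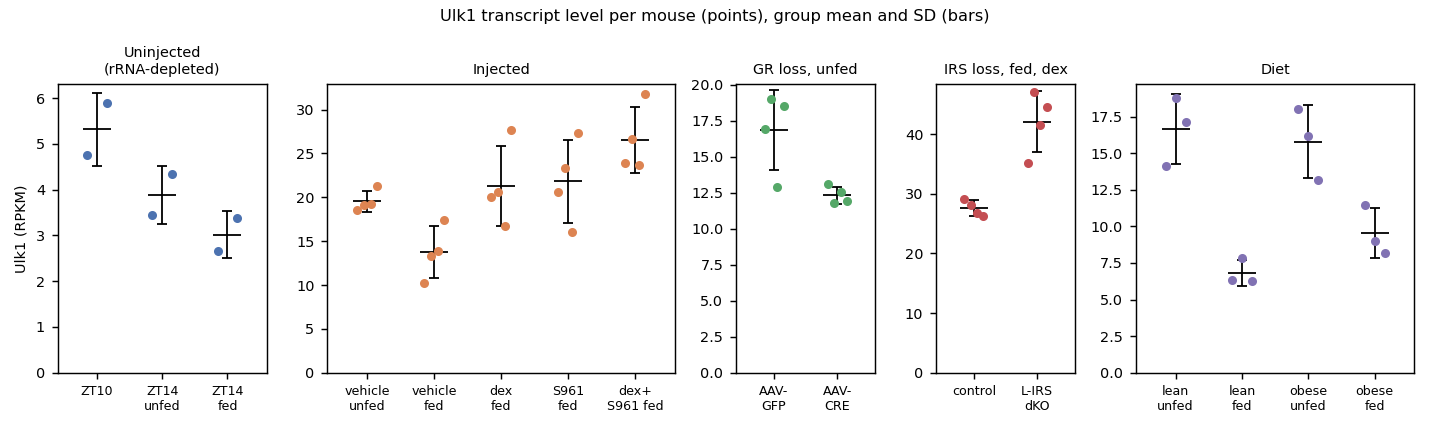
Ulk1 level in RPKM (vertical axis) in each mouse (points) of the groups of the 5 experiments, with the group mean and SD (bars). The fed lean livers at 6.26 to 7.86 RPKM lie below the unfed lean livers, and fed livers with dex and S961 at 23.7 to 31.8 RPKM lie above fed vehicle livers.

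Binding of GR and FOXO1 was mapped in unfed liver at ZT14. Less than 50 kb from the transcription start site (TSS) of Ulk1 lay 2 peaks of GR and 3 of FOXO1. The nearest of each factor lay inside the gene, in an intron, 1.8 kb (FOXO1) and 2.1 kb (GR) downstream of the TSS and without overlapping each other. They are shown, as all sequences here, on the plus strand of mm9, with matches in capitals to the GR hexamer AGAACA (reverse complement TGTTCT), a single arm of the palindromic GR response element, or the forkhead core TAAACA (reverse complement TGTTTA), both searched on both strands. Of all 10446 GR peaks 27.7% held the GR hexamer, and of all 8546 FOXO1 peaks 34.8% held the forkhead core. The Ulk1 GR peak held 1 GR hexamer and the Ulk1 FOXO1 peak held neither motif.
Ulk1 FOXO1 peak, chr5:111237257-111237436: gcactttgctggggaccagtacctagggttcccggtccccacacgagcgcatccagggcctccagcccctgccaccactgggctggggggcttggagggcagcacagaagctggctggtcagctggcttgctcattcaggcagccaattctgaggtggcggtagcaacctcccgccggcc
Ulk1 GR peak, chr5:111236952-111237131: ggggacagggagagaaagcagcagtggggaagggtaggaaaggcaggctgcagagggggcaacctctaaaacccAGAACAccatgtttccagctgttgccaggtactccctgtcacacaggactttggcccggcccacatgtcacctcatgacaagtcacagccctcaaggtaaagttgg

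Among the partners of Ulk1, its paralog Ulk2 moved the opposite way in L-IRSdKO. Ulk2 was at 19.8, 17.9, 19.2 and 24.5 RPKM in controls and 10.4, 12.9, 12.2 and 13.7 RPKM in L-IRSdKO. Every L-IRSdKO liver was below every control, and Ulk2 fell by 0.70 ± 0.12 (adjusted p = 0.00814). Rb1cc1, also known as FIP200, the scaffold of the ULK1 complex, was at 10.7, 10.9, 12.5 and 11.5 RPKM in controls and at 14.7, 15.9, 17.4 and 17.8 RPKM in L-IRSdKO. Again without overlap, Rb1cc1 rose by 0.51 ± 0.10 (adjusted p = 0.00968). In lean mice Rb1cc1 was at 9.27, 8.80 and 8.89 RPKM unfed and 4.93, 5.95 and 6.04 RPKM fed, groups apart, with a log2 fold change of -0.63 ± 0.15 (adjusted p = 0.0105, against a threshold of 0.01, and 0.00803 after median-ratio scaling). Atg101, which stabilizes Atg13 in the complex, was the single member called for the meal after vehicle injection. It was at 9.04, 9.60, 9.19 and 9.29 RPKM in unfed and 6.56, 6.51, 4.95 and 7.08 RPKM in fed livers. The groups were apart, and Atg101 fell by 0.54 ± 0.14 (adjusted p = 0.0378). Its adjusted p was 0.0237 in the first library series alone. It rose above the threshold, to between 0.0621 and 0.11, when any 1 of the unfed vehicle libraries or of fed vehicle replicates 1 to 3 was left out. In lean mice of the diet experiment the groups overlapped for Atg101, with 11.7, 10.3 and 11.4 RPKM unfed and 13.2, 11.6 and 13.0 RPKM fed. Atg13, the adaptor of the complex, was called in no comparison (group means of 4.46 to 29.4 RPKM, log2 fold changes of -0.32 to 0.43).

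The VPS34 complex makes the lipid PI3P on the growing membrane. Its catalytic subunit Pik3c3 was at 6.65, 5.92 and 6.65 RPKM in unfed and 4.19, 4.13 and 4.30 RPKM in fed lean livers. All fed livers were lower, and Pik3c3 fell by 0.55 ± 0.12 (adjusted p = 0.00936). In obese livers it was at 7.95, 7.38 and 5.602 RPKM unfed and 5.57, 5.04 and 4.36 RPKM fed (-0.44 ± 0.12, adjusted p = 0.0528). Atg14, the subunit that directs the complex to autophagosome formation (chr14:48160569-48188109, minus strand), responded to dex with S961. Atg14 was at 6.10, 6.71, 7.54 and 5.42 RPKM in fed vehicle livers, 8.33, 6.31, 9.11 and 5.79 RPKM with dex, 8.63, 8.69, 5.88 and 4.14 RPKM with S961 and 13.2, 10.8, 11.6 and 7.60 RPKM with both. The mice given both agents were all above the vehicle mice, narrowly for replicate 4, whereas each single agent overlapped them. Atg14 rose by 0.69 ± 0.21 with both (adjusted p = 0.0398, and 0.00934 in the first library series alone). The adjusted p was between 0.0508 and 0.111 when fed vehicle replicate 1, 2 or 4, replicate 1, 2 or 3 of the group with both agents, or unfed vehicle replicate 2 was left out. In L-IRSdKO Atg14 varied widely, at 14.6, 37.1, 41.3 and 29.0 RPKM against 10.4 to 24.6 RPKM in the 4 controls, and was not called. For the meal it was at 6.02, 5.98 and 6.58 RPKM unfed and 4.41, 4.22 and 3.80 RPKM fed in lean livers (-0.53 ± 0.14, adjusted p = 0.0177), and at 7.78, 6.65 and 8.04 RPKM unfed and 5.99, 5.39 and 3.84 RPKM fed in obese livers (-0.54 ± 0.14, adjusted p = 0.038). Both pairs of groups were apart and neither passed 0.01. Ambra1, a partner of Becn1, was at 8.77, 8.71, 9.21 and 7.90 RPKM in controls and 10.3, 11.3, 11.9 and 11.8 RPKM in L-IRSdKO. All L-IRSdKO livers were higher, and Ambra1 rose by 0.37 ± 0.09 (adjusted p = 0.0278). Becn1 (group means of 19.7 to 53.0 RPKM), Pik3r4 (1.96 to 6.46 RPKM) and Uvrag (6.33 to 26.2 RPKM) were called nowhere, with log2 fold changes of -0.30 to 0.34. The overlapping GR and FOXO1 peaks in an Atg14 intron, 5.7 kb downstream of the TSS, are shown joined as 1 sequence because this gene was called with both agents. It held 1 forkhead core.
Atg14 GR and FOXO1 peaks, chr14:48182313-48182498: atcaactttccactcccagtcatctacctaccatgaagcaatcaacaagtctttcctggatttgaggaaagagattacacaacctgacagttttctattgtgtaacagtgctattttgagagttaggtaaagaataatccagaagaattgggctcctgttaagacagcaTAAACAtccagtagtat

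Atg2a, a lipid transfer protein that feeds the growing membrane, was at 8.59, 9.32 and 10.2 RPKM in unfed and 6.75, 6.48 and 6.65 RPKM in fed lean livers. The groups were apart, and Atg2a fell by 0.47 ± 0.10 (adjusted p = 0.00816). For Atg2a and Pik3c3 the call in lean mice was kept only when replicate 1 or 3 of the unfed obese group was left out, and leaving out any of the other 10 libraries gave adjusted p values from 0.0102 to 0.0345. Ulk1 stayed past 0.01 in lean mice without any 1 of the 12 libraries (highest adjusted p = 0.00404). Atg9a (7.72 to 26.6 RPKM), Atg2b (3.86 to 10.3 RPKM) and the PI3P readers Wipi1 (2.13 to 17.7 RPKM) and Wipi2 (14.3 to 30.3 RPKM) were called nowhere, with log2 fold changes of -0.49 to 0.53. For Wipi1 with both agents the call depended on the processing. Its log2 fold change of 0.53 passed with a term for the library series (adjusted p = 0.00838) or the replicate number as a block (0.00663), as did 0.69 after median-ratio scaling (0.0217) and 0.56 in the first series alone (0.0304).

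The conjugation machinery attaches the ATG8 proteins to the lipid phosphatidylethanolamine. Of its 10 genes 2 were called, both in L-IRSdKO, where 17.4% of all genes were called. Atg3, the enzyme that transfers ATG8 proteins to the lipid, was at 53.3, 48.8, 55.1 and 54.1 RPKM in controls and 48.1, 40.4, 43.8 and 39.7 RPKM in L-IRSdKO. The groups were apart by less than 1 RPKM, and Atg3 fell by 0.30 ± 0.08 (adjusted p = 0.0365). Atg16l2, a paralog of the membrane-targeting factor Atg16l1, was at 11.7, 15.3, 9.72 and 7.64 RPKM in controls and 17.3, 14.4, 19.0 and 21.9 RPKM in L-IRSdKO. The groups overlapped, and the rise was 0.71 ± 0.21 (adjusted p = 0.0439). The calls of Ambra1, Atg3 and Atg16l2 in L-IRSdKO depended on single libraries. With 1 library left out, Ambra1 stayed called only without control replicate 3 or L-IRSdKO replicate 1, Atg3 only without control replicate 2 or L-IRSdKO replicate 1, and Atg16l2 only without control replicate 2, with adjusted p up to 0.086, 0.106 and 0.121 otherwise. Atg4b, a protease that processes ATG8 proteins, was the single member with a positive meal response in lean mice at an adjusted p under 0.05, at 7.10, 6.52 and 6.69 RPKM unfed and 8.85, 8.02 and 8.05 RPKM fed (0.28 ± 0.07, adjusted p = 0.0168). After median-ratio scaling its log2 fold change was 0.19 (adjusted p = 0.0852). Atg4c, Atg4d, Atg5, Atg7, Atg10, Atg12 and Atg16l1 were called nowhere, with log2 fold changes of -0.42 to 0.52. With the library series as a term, Atg5 (-0.40, adjusted p = 0.0222) and Atg16l2 (-0.60, adjusted p = 0.0285) passed for dex. Among the genes called nowhere Atg10 was the lowest in level (group means of 1.252 to 3.12 RPKM), and the E1-like enzyme Atg7 was at 4.85 to 13.4 RPKM.

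The ATG8 proteins coat the autophagosome and bind cargo receptors. Map1lc3b, which encodes LC3B, the usual marker of autophagosomes (chr8:124114368-124121947, plus strand), was called in both genetic models, in opposite directions. In L-GRKO it was at 51.5, 53.9, 52.8 and 44.6 RPKM against 66.8, 59.5, 68.7 and 76.7 RPKM in the AAV-GFP controls. All L-GRKO livers were below all controls, and Map1lc3b fell by 0.42 ± 0.10 (adjusted p = 0.0346). This call was kept without control replicate 2 (adjusted p = 0.0296) and lost without any of the other 7 libraries (0.0612 to 0.0811). In L-IRSdKO it was at 80.8, 86.7, 95.1 and 86.6 RPKM against 56.9, 61.9, 62.4 and 54.99 RPKM in controls. The groups were far apart, and Map1lc3b rose by 0.56 ± 0.07 (adjusted p = 0.00334, and 0.015 at most without any 1 library).

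In the injection experiment Map1lc3b was at 53.1, 52.3, 51.2 and 28.0 RPKM in unfed vehicle and 38.3, 40.7, 42.7 and 38.9 RPKM in fed vehicle livers. It was at 54.4, 46.4, 46.8 and 30.4 RPKM with dex, 49.9, 51.2, 36.6 and 38.8 RPKM with S961 and 56.4, 58.9, 55.4 and 42.5 RPKM with both. Replicate 4, of the later library series, was the lowest unfed vehicle mouse, the lowest dex mouse and the lowest mouse given both agents. With all 4 replicates no comparison was called (both agents, 0.40 ± 0.20, adjusted p = 0.211), and in the first series alone both agents gave 0.485 (adjusted p = 0.0154). In lean mice it was at 41.9, 41.1 and 39.0 RPKM unfed and 30.9, 31.3 and 34.0 RPKM fed (-0.34 ± 0.11, adjusted p = 0.0507), with the groups apart. In obese mice it was at 30.5, 37.4 and 42.2 RPKM unfed and 37.8, 32.1 and 31.8 RPKM fed, overlapping (-0.10 ± 0.11, adjusted p = 0.615). Obese against lean was -0.16 ± 0.11 unfed (adjusted p = 0.426) and 0.08 ± 0.11 fed (adjusted p = 0.752). In uninjected mice it was at 29.3 and 26.0 RPKM at ZT10, 24.7 and 32.9 RPKM in ZT14-unfed and 23.8 and 24.0 RPKM in ZT14-fed livers, with no call (adjusted p = 0.869 and 0.299). Map1lc3b had 6 GR and 5 FOXO1 peaks within 50 kb. The nearest overlapping pair, 5.0 kb upstream of the TSS and inside the annotated gene Gm20388, held 1 forkhead core.
Map1lc3b GR and FOXO1 peaks, chr8:124109203-124109445: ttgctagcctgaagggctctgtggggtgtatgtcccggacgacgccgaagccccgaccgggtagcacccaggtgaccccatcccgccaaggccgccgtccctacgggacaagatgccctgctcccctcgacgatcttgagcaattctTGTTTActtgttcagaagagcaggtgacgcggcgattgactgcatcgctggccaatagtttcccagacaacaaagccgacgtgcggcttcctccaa

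Gabarapl1, another ATG8 gene, was among the more abundant members, with group means of 66.8 to 194.5 RPKM. In lean mice it was at 163, 194 and 157 RPKM unfed and 106, 121 and 124 RPKM fed (-0.54 ± 0.16, adjusted p = 0.0327), groups apart but not past 0.01. In the first library series alone it passed 0.05 for the vehicle meal (-0.43, adjusted p = 0.031) and for both agents (0.49, adjusted p = 0.0113), and for both agents also with the series term (0.39, adjusted p = 0.017) or the replicate block (adjusted p = 0.0219). Gabarapl2 was at 36.8 to 42.3 RPKM in the 8 libraries of the L-GRKO experiment and at 3.21 to 14.8 RPKM in all other libraries, in controls and knockouts alike, and was called nowhere. Map1lc3a (group means of 10.1 to 40.3 RPKM) and Gabarap (69.8 to 152.5 RPKM) were called nowhere, with log2 fold changes of -0.23 to 0.26.

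Cargo receptors tie the material to be degraded to the ATG8 proteins. Optn, a receptor for ubiquitin-tagged mitochondria and bacteria (chr2:4941688-4985097, minus strand), was called for S961. It was at 34.5, 34.6, 33.8 and 29.1 RPKM in fed vehicle, 24.9, 24.4, 27.6 and 28.1 RPKM in dex, 37.6, 43.5, 61.3 and 45.1 RPKM in S961 and 42.1, 41.4, 43.4 and 43.2 RPKM in livers with both. All dex mice were below, and all mice given S961 with or without dex were above, all vehicle mice. Optn rose by 0.48 ± 0.12 with S961 (adjusted p = 0.0397). This was 0.43 in the first series alone (adjusted p = 0.112), and adjusted p was over 0.05, up to 0.091, without any 1 of 13 of the 20 libraries, including each fed vehicle library and S961 replicates 2 to 4. In L-IRSdKO Optn was at 71.9, 75.4, 71.0 and 70.4 RPKM against 76.3, 69.8, 70.9 and 75.3 RPKM in controls, with the groups overlapping. The overlapping peaks, 2.7 kb downstream of the TSS in an intron, held 1 GR hexamer.
Optn GR and FOXO1 peaks, chr2:4982263-4982529: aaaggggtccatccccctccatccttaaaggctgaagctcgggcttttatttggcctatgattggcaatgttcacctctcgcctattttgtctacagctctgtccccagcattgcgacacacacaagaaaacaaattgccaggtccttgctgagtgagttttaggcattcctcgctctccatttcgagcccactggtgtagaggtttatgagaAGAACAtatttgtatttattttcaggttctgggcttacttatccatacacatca

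Bnip3, a receptor on mitochondria (chr7:146082519-146101202, minus strand), was called for dex with S961. It was at 64.4, 48.7, 60.0 and 48.2 RPKM in fed vehicle, 64.0, 67.3, 58.9 and 59.8 RPKM in dex, 50.8, 62.9, 104 and 68.3 RPKM in S961 and 88.9, 85.1, 85.2 and 87.5 RPKM in livers with both. The mice given both agents lay close together and above all vehicle mice. The S961 mice overlapped the vehicle mice, with replicate 3 the highest of all. Bnip3 rose by 0.66 ± 0.15 (adjusted p = 0.0097), and by 0.59 in the first series alone (adjusted p = 0.0598). Its relative Bnip3l, also known as NIX (chr14:67604076-67627714, minus strand), was at 19.0, 19.2, 23.3 and 19.4 RPKM in controls and 24.9, 29.7, 33.5 and 33.8 RPKM in L-IRSdKO. No L-IRSdKO liver reached down to the controls, and Bnip3l rose by 0.58 ± 0.12 (adjusted p = 0.0132). In lean mice it was at 21.0, 21.3 and 21.2 RPKM unfed and 15.9, 16.5 and 17.7 RPKM fed (-0.33 ± 0.08, adjusted p = 0.0121). These groups were apart, and the change was just outside the threshold, with an adjusted p of 0.00655 after median-ratio scaling. The pair of peaks 4.3 kb upstream of Bnip3, in no annotated gene, held 1 forkhead core, and the pair in a Bnip3l intron, 1.1 kb downstream of the TSS, held neither motif. They are shown because both genes were called.
Bnip3 GR and FOXO1 peaks, chr7:146105380-146105650: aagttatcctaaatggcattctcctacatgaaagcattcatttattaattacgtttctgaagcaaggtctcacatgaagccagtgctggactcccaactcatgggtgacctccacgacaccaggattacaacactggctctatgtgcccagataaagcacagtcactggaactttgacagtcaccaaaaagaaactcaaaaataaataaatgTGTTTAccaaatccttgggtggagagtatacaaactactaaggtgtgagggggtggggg
Bnip3l GR and FOXO1 peaks, chr14:67626457-67626682: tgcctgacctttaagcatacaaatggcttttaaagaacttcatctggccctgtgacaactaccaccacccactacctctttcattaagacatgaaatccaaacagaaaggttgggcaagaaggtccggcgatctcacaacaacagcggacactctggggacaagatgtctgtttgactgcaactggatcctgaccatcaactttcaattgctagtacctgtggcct

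**Figure D3:**
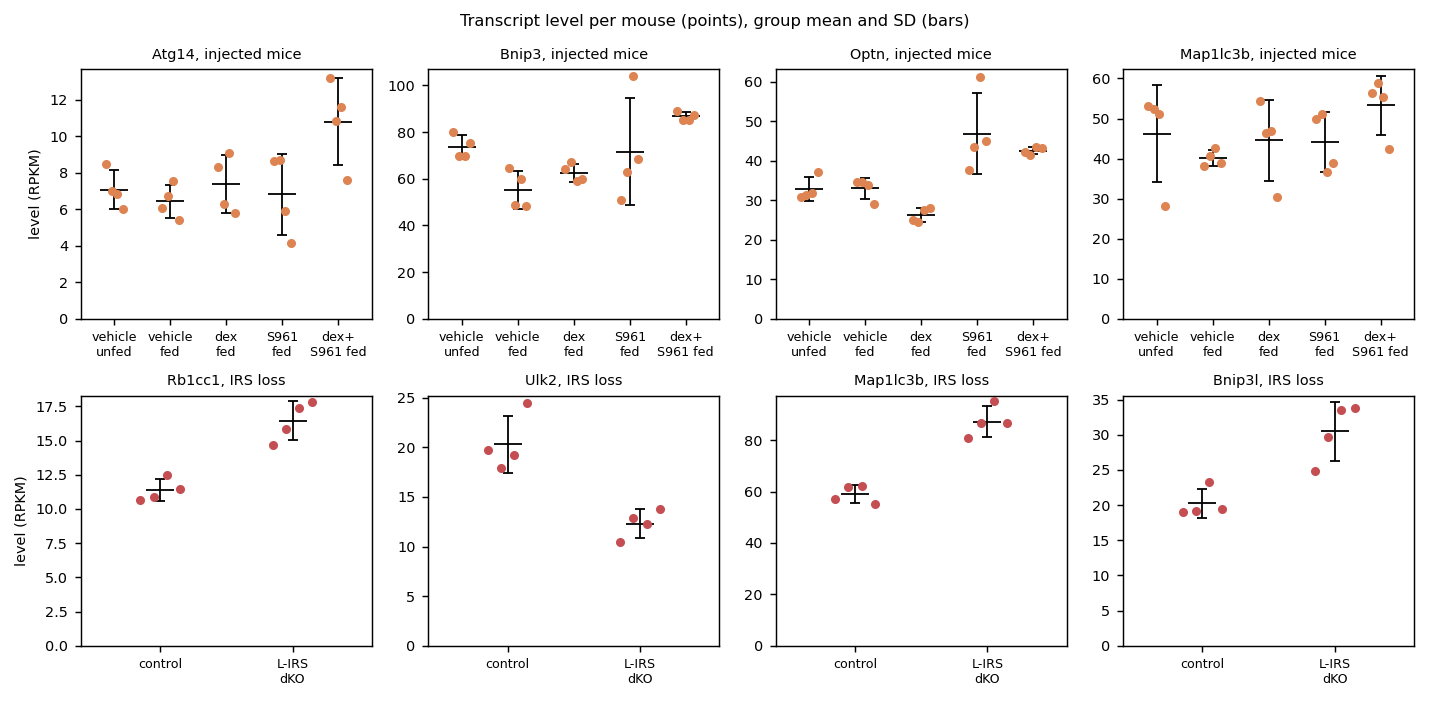
Levels in RPKM (vertical axes) in each mouse (points) with group mean and SD (bars), for Atg14, Bnip3, Optn and Map1lc3b in injected mice (upper row) and Rb1cc1, Ulk2, Map1lc3b and Bnip3l in floxed controls and L-IRSdKO (lower row). The livers with dex and S961 lie above the fed vehicle livers for Atg14, Bnip3 and Optn, and in the lower row the 2 groups do not overlap.

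Sqstm1, encoding the receptor p62, and Nbr1 were called nowhere, nor were Tfeb and Tfe3, the transcription factors of lysosome and autophagy genes. Group means of Sqstm1 ran from 92.4 to 153.4 RPKM, and its log2 fold changes from -0.40 to 0.32. Those of Nbr1 ran from -0.20 to 0.31 at 39.4 to 80.9 RPKM, and those of Tfeb (1.65 to 9.11 RPKM) and Tfe3 (2.14 to 15.02 RPKM) from -0.28 to 0.22. Over all 24 genes called in none, log2 fold changes ran from -0.55 to 0.53, and the lowest adjusted p was 0.0168, for Atg4b in lean mice. Map1lc3a, Tfeb and Tfe3 also had no unadjusted p under 0.05 in any of the 12 comparisons of 2 groups.

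Counted by comparison, the largest number of called members was in L-IRSdKO, where 6 rose and 2 fell, 8 of 38 or 21.1%, against 17.4% of all genes tested (9.04% up and 8.32% down), a share near the background. With dex and S961 3 members rose and none fell, or 7.89%, where 10.6% of all genes were called, 2.69% upward. In lean mice 3 fell and none rose, or 7.89%, where 10.2% of all genes were called, 3.23% downward. At an adjusted p under 0.05 the lean meal gave 7 members lower and 1 higher, where 23.4% of all genes were called, 7.28% lower and 16.1% higher. The member median of the lean meal was -0.15 and the median of all genes 0.08, or -0.24 and 0.005 after median-ratio scaling. In the other 13 comparisons member medians lay between -0.07 and 0.06, and in 6 comparisons the sign of the member median depended on this scaling. It moved the median of all genes from a range of -0.14 to 0.12 to a range of -0.01 to 0.01.

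In the other comparisons 1 member or none was called. For the meal after vehicle injection and for S961 the 1 called member stood against 3.13% (0.578% down) and 1.89% (0.933% up) of all genes, and for L-GRKO against 6.68% (2.22% down). No member was called by limma for dex (3.19% of all genes called), time of day (1.16%), the uninjected meal (0.990%), the meal in obese mice (1.22%), obese against lean unfed (0.770%) or obese against lean fed (0.00%). The same held for the interactions of dex and S961 (0.00%) and of meal and diet (0.131%). At an unadjusted p under 0.05 there were 7 of the 38 members for dex (18.5% of all genes), 8 for time of day (26.4%), 6 for the uninjected meal (27.7%), 11 for the meal in obese mice (25.2%), 6 for unfed (23%) and 8 for fed obese against lean (20%), 2 for the interaction of dex and S961 (4.56%) and 5 for that of meal and diet (15%). The count of 0 for dex depended on the library series. With a term for the series, or with the replicate block, Ulk1 (adjusted p = 0.003 and 0.00299), Atg5 (0.0222 and 0.0237) and Atg16l2 (0.0285 and 0.038) passed, and the same 3 genes passed in the first series alone (0.0178, 0.0497 and 0.0258). In obese mice the meal gave 2 members lower at an adjusted p under 0.05, Ulk1 and Atg14, with 7.65% of all genes called at that level (2.48% down).

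**Figure D4:**
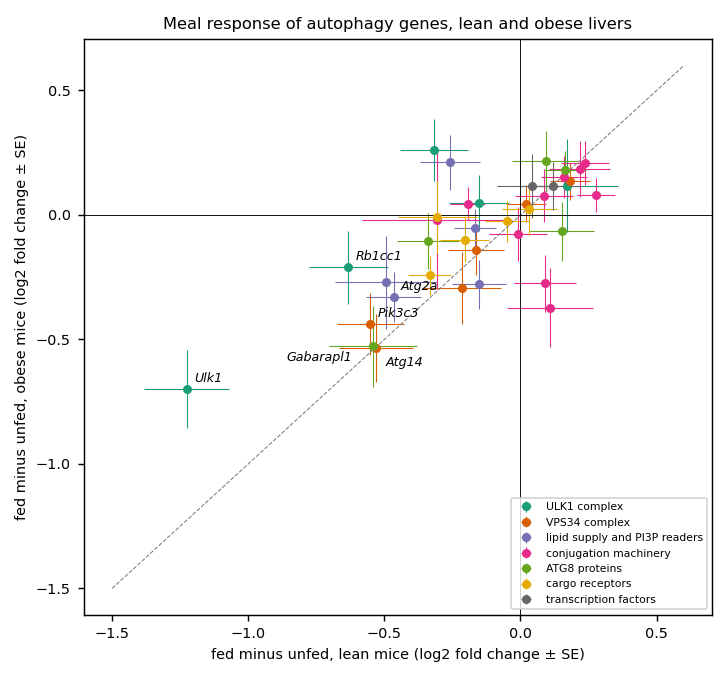
Meal response (log2 fold change ± SE, fed minus unfed) of the 38 autophagy genes in lean (horizontal axis) and obese livers (vertical axis), with a dashed line of equal response. Ulk1 is the lowest point on both axes (-1.23 and -0.70), and no member passed the test of a difference between the diets.

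Several marker lists moved with the groups in which members were called. Summed levels of 8 Kupffer cell markers were 57.2 to 70.0 RPKM in unfed vehicle, 81.5 to 117.9 RPKM in fed vehicle, 54.4 to 79.5 RPKM in S961 and 60.3 to 73.8 RPKM in livers with both agents. Of these markers 4 rose with the vehicle meal, 3 fell with S961 and 4 fell with both agents. Of all genes 3.13%, 1.89% and 10.6% were called there in either direction. With dex, where no member was called, the sum was 49.6 to 85.0 RPKM. The Kupffer cell marker Cd5l (-0.74) and the endothelial markers Kdr (-0.82) and Clec4g (-0.47) were called lower with dex (3.19% of all genes called). In L-IRSdKO 4 of 6 endothelial markers rose (summed 125 to 160.7 against 97.4 to 122 RPKM), 2 of 8 Kupffer cell markers rose (289.1 to 362.4 against 167.5 to 306 RPKM), 2 of 4 tested cholangiocyte markers fell (7.87 to 13.9 against 19.7 to 46.2 RPKM), 1 of 6 hepatocyte markers (Ttr) fell (2318 to 2805 against 2530 to 2895 RPKM) and 1 of 4 erythroid markers fell. In L-GRKO 3 of 4 erythroid markers rose (354.1 to 690.5 against 243.2 to 315.4 RPKM), as did 1 of 6 stellate cell markers, Lrat (0.47, adjusted p = 0.037, summed 11.8 to 20.3 against 9.13 to 13.02 RPKM), and 1 of 6 hepatocyte markers, Cps1, fell (-0.90, adjusted p = 0.00173). With the lean meal 1 of 6 endothelial markers, Stab2, fell (-0.62, adjusted p = 0.00301, summed 42.3 to 48.9 fed against 57.6 to 69.3 RPKM unfed). All markers of these lists were above 0 on average in every group, and their part in the results above was not tested.

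The neighbors of the pathway were taken from 3 further lists. Among 30 further autophagy genes, of which 29 were tested, Depp1, a FOXO target that has been tied to autophagy, fell with the meal in uninjected mice (-3.33 ± 0.37, adjusted p = 0.00628) and after vehicle (-3.00 ± 0.41, adjusted p = 0.00288) and rose in L-IRSdKO (3.19 ± 0.41, adjusted p = 0.00329). Retreg1, a receptor for autophagy of the endoplasmic reticulum, rose with dex (0.79 ± 0.20, adjusted p = 0.036), S961 (0.79 ± 0.20, adjusted p = 0.0469) and both agents (1.51 ± 0.20, adjusted p = 0.000144). It rose in L-IRSdKO by 1.02 ± 0.12 and fell in L-GRKO (-1.245 ± 0.16) and with the lean meal (-1.48 ± 0.30). C9orf72, part of a complex that acts with ULK1, rose from ZT10 to ZT14-unfed (1.12 ± 0.14) and with both agents (1.12 ± 0.22), and fell with the meal in uninjected (-1.62 ± 0.14) and lean mice (-1.27 ± 0.15). Calcoco1 rose in L-IRSdKO (0.78 ± 0.11) and fell with the meal in lean (-0.998 ± 0.14) and obese mice (-0.90 ± 0.14). Other called genes that the naming rule reached were Zfyve1 (-0.52) and Rubcn (-0.46) with both agents, Ncoa4 in L-GRKO (-0.60), Tmem41b in L-IRSdKO (-0.74) and Fyco1 in unfed obese against lean livers (0.68). C9orf72 also rose in L-IRSdKO (0.70 ± 0.16, adjusted p = 0.0186), a value beyond the naming rule that is given after it was seen. By comparison, 5 of these 29 genes rose and 3 fell in L-IRSdKO (27.6%, against 17.4% of all genes), 2 rose and 2 fell with both agents (13.8%, against 10.6%) and 3 fell with the lean meal (10.3%, against 10.2%). In L-GRKO 2 fell (6.90%, against 6.68%), and 2 fell with the uninjected meal (6.90%, against 0.990%). A single gene rose with dex, S961, time of day and unfed obesity, a single gene fell with the vehicle meal and the obese meal, and none was called in obese against lean fed livers or in either interaction. A single gene is 3.45% of the list, against 0.770% (unfed obesity) to 3.19% (dex) of all genes in those comparisons.

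Of 38 mTORC1 and AMPK genes, of which 35 to 37 were tested per experiment, 5 rose and 2 fell in L-IRSdKO (18.9%, against 17.4% of all genes) and 3 rose and 5 fell with the lean meal (22.2%, against 10.2%). Ddit4, a glucocorticoid-induced inhibitor of mTORC1, rose with dex (2.70 ± 0.29), with both agents (2.74 ± 0.29) and in L-IRSdKO (1.66 ± 0.30). It fell with the meal after vehicle (-1.87 ± 0.29) and in lean mice (-3.08 ± 0.34), in L-GRKO (-2.31 ± 0.36) and in unfed obese against lean livers (-4.37 ± 0.34). The sestrins, inhibitors of mTORC1 that respond to amino acids and stress, were called too. Sesn1 rose with both agents (1.67 ± 0.16) and in L-IRSdKO (1.94 ± 0.47) and fell with the lean meal (-0.80 ± 0.16), and Sesn2 rose in L-IRSdKO (1.39 ± 0.33) and fell with the meal after vehicle (-1.27 ± 0.24) and in lean mice (-2.01 ± 0.27). Rragd, a GTPase that brings mTORC1 to the lysosome, rose in L-IRSdKO (2.41 ± 0.52). Prkag2 rose with dex (0.43 ± 0.09) and both agents (0.37 ± 0.09), Mlst8 fell with both agents (-0.47 ± 0.12), Deptor rose in L-GRKO (0.44 ± 0.10) and Fnip1 fell with the lean meal (-0.96 ± 0.14). In the comparisons not named here no gene of this list was called. All adjusted p values of these calls lay under the thresholds given above.

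Of 36 lysosome genes 3 rose and 6 fell in L-IRSdKO (25%, against 17.4% of all genes) and 2 rose and 2 fell with both agents (11.1%, against 10.6%). With the lean meal 1 rose and 1 fell (5.56%, against 10.2%), as in L-GRKO (5.56%, against 6.68%), shares below those of all genes. Ctsl, a protease of the lysosome, rose with S961 (0.54 ± 0.10) and both agents (0.52 ± 0.10) and fell in L-GRKO (-0.68 ± 0.17). It also rose in L-IRSdKO (0.49 ± 0.10, adjusted p = 0.016), again a value outside the naming rule. Npc1, which exports cholesterol from the lysosome, rose with both agents (0.46 ± 0.12) and in L-IRSdKO (0.60 ± 0.15) and fell with the lean meal (-0.97 ± 0.17). Lipa, the acid lipase, rose in L-GRKO (0.82 ± 0.10). In L-IRSdKO Clcn7 (-0.69 ± 0.14), Atp6v0a1 (-0.54 ± 0.16) and Mcoln1 (-0.51 ± 0.09), a chloride transporter, a proton pump subunit and a calcium channel, fell. Sgsh fell with both agents (-0.59 ± 0.17) and rose with the lean meal (0.64 ± 0.14), and Ctsb fell with both agents (-0.29 ± 0.08). With S961 only Ctsl was called among the lysosome genes (2.78%, against 1.89% of all genes), and in the other 9 comparisons none was.

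GR and FOXO1 binding was taken from peak lists of unfed liver at ZT14, made from livers pooled from several mice and holding peaks found in both replicates, with positions only and no height. Of the 38 genes 21 (55.3%) had a GR peak within 50 kb of the TSS, against 33.6% of all placed genes and 45.9% of the genes tested for expression. A FOXO1 peak lay within 50 kb of 23 genes (60.5%), against 35.3% and 48.9%, and 18 genes had both (47.4%, against 24.8% and 35.3%). Wipi1, Gabarapl1 and Ulk2 had a GR but no FOXO1 peak, 5 genes (Atg4c, Atg4d, Atg5, Gabarap and Tfeb) had FOXO1 alone, and 12 had neither. The 12 without either included Rb1cc1, Pik3c3, Ambra1 and Atg3, which were called in expression. At least 1 call was made for 14 of all 38 members and for 37.9% of the genes tested in all 5 experiments. No test was run on these shares.

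Within 1 kb of the TSS, GR peaks were found for Gabarapl1 alone (2.63% of members, against 4.91% of tested genes), and FOXO1 peaks for 6 genes, Wipi2, Atg4c, Atg4d, Sqstm1, Nbr1 and Tfeb (15.8%, against 10.9%). None of these 7 genes was called in any comparison. Of all 38 members 14 were called at least once, as were 37.9% of the genes tested in all 5 experiments. Whether the 7 genes differ from these shares was not tested. Uvrag had the most peaks, 11 of GR and 6 of FOXO1. Near members there were 63 GR and 53 FOXO1 peaks, and 27 of each overlapped a peak of the other factor by at least 1 bp. Of all peaks 48.8% of GR and 59.7% of FOXO1 overlapped so, a higher share than near members for both factors. The GR hexamer was in 21 of the 63 GR peaks (33.3%) and the forkhead core in 22 of the 53 FOXO1 peaks (41.5%). The insulin response element CAAAACA (reverse complement TGTTTTG) was in 3 of the 53 (5.66%), against 9.02% of all FOXO1 peaks. A DNase I hypersensitive site (DHS), a stretch of open chromatin, lay within 2 kb of the TSS of 35 genes (92.1%, against 58.4% of all placed and 85.6% of tested genes). The nearest DHS was farther off for Rb1cc1 (8.2 kb), Map1lc3b (-4.9 kb, upstream) and Atg4b (3.3 kb). This rested on the 1 start site used per gene. Counting any annotated transcript start, 37 of the 38 genes (97.4%) had a DHS within 2 kb, against 62.3% of all placed and 89.9% of tested genes.

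**Figure D5:**
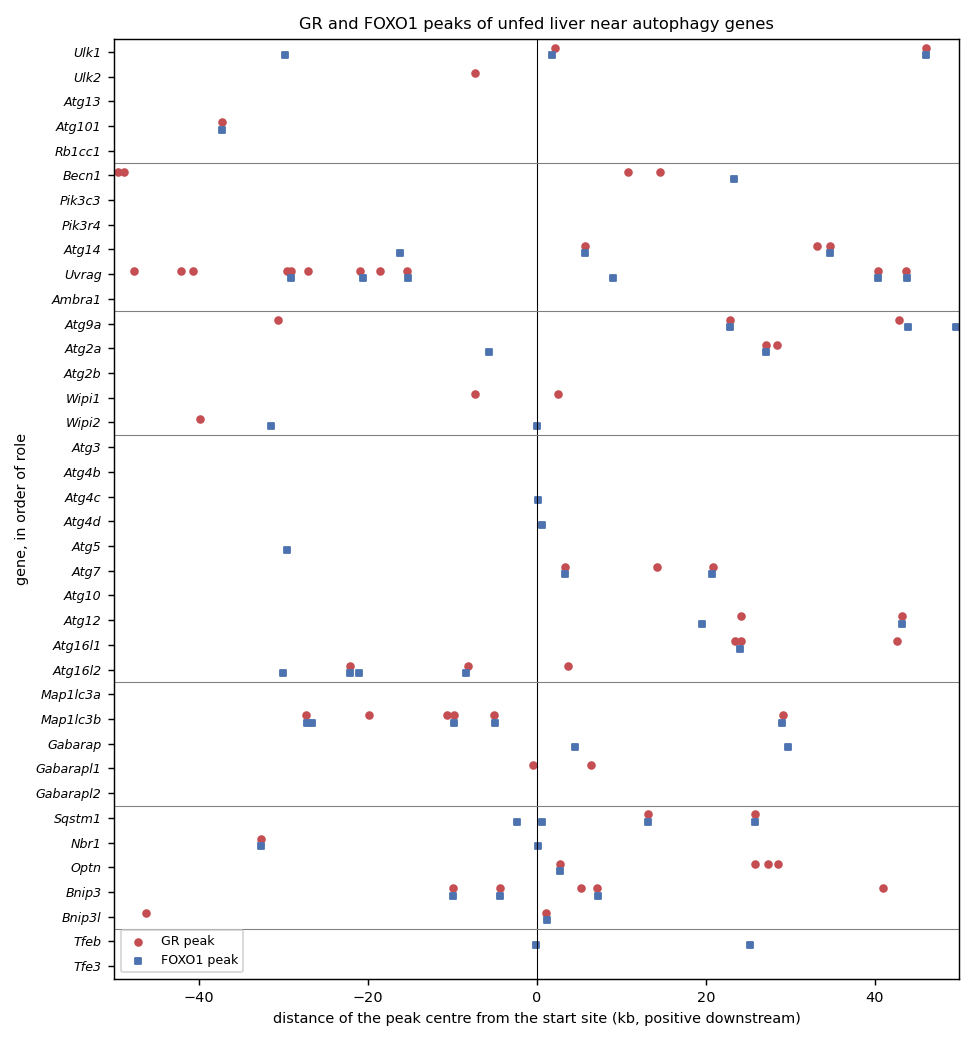
Distance in kb of GR and FOXO1 peak centers of unfed liver from the TSS (horizontal axis, positive downstream) for the 38 autophagy genes (rows, in order of role, empty for the 12 without a peak within 50 kb). Uvrag carries the most peaks, 11 of GR and 6 of FOXO1, and few marks lie at the TSS itself.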

How the data were processed

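RPKM values per RefSeq transcript were deposited in 1 table, made by the authors from reads aligned to mm9 with STAR, from ribosome-depleted RNA in the NRF experiment and poly(A) RNA in the others. The authors tested expression with DESeq2 and called peaks with HOMER. These names come from the study's methods and the submitters' processing notes, and versions are not given in the sources used here. Of 35707 identifiers 35402 had a symbol, giving 24308 symbols. RPKM values are not counts, so each experiment was fitted on its own with limma 3.58.1 in R 4.3.3 (linear model with a variance trend) on log2(RPKM + 0.5), with all its groups, no block, and a filter that kept genes averaging 0.5 RPKM or more (10904 to 12963 genes). Tests were two-sided. The script was tested on simulated data. Libraries of a group are single mice per the labels. Depth was estimated from the RPKM steps of 7805 genes, in which 50.6% to 54.3% of values came within 0.1 of whole reads in the L-GRKO experiment and 61.1% to 77.6% in the others, so no count test was run.

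Peaks were deposited as positions on mm9 and joined to GENCODE M1 start sites for 22116 symbols. Sequences came from the NCBIM37 (mm9) genome. Printed sequences are peaks of called members with an overlapping GR and FOXO1 pair within 10 kb, and for Ulk1 the nearest peak of each factor. Named members are those called, with all groups given for Ulk1 and Map1lc3b, and up to 4 called genes per comparison from the other lists. The members and lists were chosen with earlier results of these data known. The alternatives were other pseudocounts (0.1 and 1), filters and scaling, a replicate block, a term for the library series, the other threshold in the NRF and diet experiments, other windows, and leaving out each library. The first library series alone was added after the data were seen. H3K27Ac and other chromatin libraries were not used here.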

Additional observations from a re-analysis of the deposited data

Results flagged for a closer look

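In 126 groups of 4 mice (14 called members in 9 groups) 8 mice stood apart from the rest of their group by Dixon's criterion at the 95% level. Chance alone flags about 1 in 20 groups, and 6 of the 8 were replicate 4 of the injection experiment, the later library series. Map1lc3b was at 28.04 RPKM in unfed vehicle replicate 4, with the nearest other mouse at 51.22 RPKM. Atg3 was at 54.57 RPKM in unfed vehicle replicate 4 (nearest 34.75 RPKM) and at 44.98 RPKM in dex replicate 4 (nearest 31.7 RPKM). Optn was at 37.25 RPKM in unfed vehicle replicate 4 (nearest 31.73 RPKM) and at 29.11 RPKM in fed vehicle replicate 4 (nearest 33.76 RPKM). Bnip3l was at 13.65 RPKM in replicate 4 of the fed group with dex and S961 (nearest 20.39 RPKM). The other 2 were Atg2a in L-IRSdKO replicate 1, at 12.63 RPKM (nearest 17.71 RPKM), and Bnip3l in floxed control replicate 3, at 23.31 RPKM (nearest 19.37 RPKM).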

How the results depend on the processing

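Of 28 log2 fold changes followed, 27 kept their direction in each of their 10 to 26 alternatives. The exception was Ulk1 in unfed obese against lean livers, reported at -0.08, which was 0.045 without unfed obese replicate 3 and 0.012 without unfed lean replicate 2 (-0.189 to 0.045 with 1 library left out). The numbers of members called moved more. For the meal after vehicle (1 reported) they were 0 without a filter, 2 with the library series term and 3 in series 1 alone, and 0 to 2 with 1 library left out. For dex (0) they were 1 after median-ratio scaling, 3 with the series term, 3 in series 1 alone and 0 to 2 with 1 library left out. For S961 (1) they were 2 after scaling, 2 with the series term and 0 to 2 with 1 library left out. For both agents (3) they were 5 after scaling, 10 with the series term and 5 in series 1 alone. For L-GRKO (1) they were 0 without a filter, 2 after scaling and 0 to 1 with 1 library left out, and for L-IRSdKO (8) 5 to 12 with 1 library left out. The lean meal (3) gave 1 without a filter, 5 after scaling, 8 at an adjusted p under 0.05 and 1 to 4 with 1 library left out. The obese meal (0) gave 2 at an adjusted p under 0.05.

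With the replicate number as a block the counts were 2 for the meal after vehicle, 3 for dex, 2 for S961, 8 for both agents, 0 for L-GRKO, 5 for L-IRSdKO and 1 for the lean meal. The labels do not say that a number marks a shared litter or day. Same-numbered mice correlated above 0.1 in 27 of 40 pairs of the injection experiment and 3 of 18 pairs of the diet experiment, in 1 of 4 and 0 of 4 pairs in L-GRKO and L-IRSdKO and in 0 of 6 pairs in the NRF experiment, so the numbers were not shown to pair the mice. In the injection experiment all 10 pairs of replicate 4, the later library series, correlated at 0.441 to 0.605, and the 30 pairs of replicates 1 to 3 at -0.12 to 0.316. All-gene counts moved by over 1.5 times too. For both agents 1192 genes became 772 after scaling, 2040 with the block and 2203 with the series term, for dex 359 became 968 and 1096, for S961 213 became 431 and 477, and for the vehicle meal 352 became 216, 928 and 1036. In series 1 alone the vehicle meal had 716, dex 818 and the interaction of dex and S961 4 in place of 0. The block gave 1440 for L-IRSdKO (2250 reported), 40 for the uninjected meal (108), 10 for time of day (127), 62 for the obese meal (140), 40 for unfed obesity (88) and 3 for the interaction of meal and diet (15). Scaling gave 75 for time of day. Without a filter the lean meal went from 1169 to 769, L-GRKO from 778 to 466, time of day from 127 to 15, the uninjected meal from 108 to 16, the obese meal from 140 to 34, unfed obesity from 88 to 32 and the interaction of meal and diet from 15 to 1. With a mean of 2 RPKM required, time of day gave 237, the uninjected meal 191 and the obese meal 213. Fed obesity (0) gave 1 with a pseudocount of 0.1. At an adjusted p under 0.05 the counts were 980, 737, 2673, 875, 597, 58 and 85 for time of day, the uninjected, lean and obese meals, unfed and fed obesity and the interaction. Within 20 kb, 100 kb or of any annotated start, the shares of members with a GR or FOXO1 peak stayed above those of tested genes, but within 1 kb the GR share was below (2.63% against 4.91%). The libraries of the L-IRSdKO experiment had the lowest estimated depth, though the study lists more reads for them. The NRF groups hold 2 mice. Differences missed in these 2 experiments were not shown to be absent.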
